A study of Mus musculus with 4 samples.

Results

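Histone H3 can carry trimethylation on lysine 36 (H3K36me3) or on lysine 9 (H3K9me3). H3K36me3 is placed by SETD2, which travels with elongating RNA polymerase II, and it covers the bodies of transcribed genes. H3K9me3 is placed by SETDB1 and the SUV39H enzymes and is known for heterochromatin and silenced repeats, to which KRAB zinc finger proteins recruit SETDB1 through TRIM28. Enzymes of the KDM4 family can remove methyl groups from both lysines. KRAB zinc finger genes are themselves a known place where both marks occur, over the long last exon that codes for the fingers.

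The regions described here were pairs of 1 H3K36me3 region and 1 H3K9me3 region whose overlap covered at least 50% of the width of each. They were chosen by their positions in the deposited lists, so that the overlaps, widths and ends below describe the choice and are not tested. On the autosomes there were 1058 such pairs. They took in 3.37% of the 31399 autosomal H3K36me3 regions and 3.28% of the 32295 autosomal H3K9me3 regions, from lists of 31593 and 32502 regions in all. No region belonged to 2 pairs, and 4 pairs on chromosomes X and Y were left out. For comparison, 28541 H3K36me3 regions had no overlap with any H3K9me3 region and 29576 H3K9me3 regions had none with any H3K36me3 region. A further 1800 and 1661 regions overlapped the other list outside the pairs.

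The regions came from ChIP-seq of mouse embryonic stem (ES) cells of strain 129S1/SvImJ below passage 20, grown with serum and leukaemia inhibitory factor. WT cells had intact H3.3 genes. The G34R cells carried a targeted glycine to arginine change in 1 copy of H3f3a, expressed from its own promoter, and kept an intact H3f3b. Each of the 4 libraries was the only one of its cell type and mark, and each list joined bins enriched in either cell type, so a pair may hold H3K36me3 of one cell type and H3K9me3 of the other. The lists hold no read values, so the read depth is unknown and WT and G34R cells were not compared. Intervals below are 95% and cover counting error only, since regions are not replicates and lie in groups along the chromosomes. The main comparisons are therefore also given as the number of the 19 autosomes on which pairs were higher or lower. Positions count from 1 on NCBIM37, which is the same assembly as mm9.

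The sequences that follow show the kinds of DNA found at the pairs. The first 3 are shown because genes for C2H2 zinc finger proteins were frequent among the pairs. These proteins bind DNA through strings of fingers joined by a short conserved linker known by its residues as TGEKP, and the capitals mark its coding motif, which was searched on both strands. The windows from Zfp612, at chr8:112613121-112613360, and Zfp930, at chr8:71751961-71752200, each held 3 motifs spaced 84 bases apart, and the parts of them that were counted occurred once in the genome. They were placed to hold the motifs, after these had been counted. The window from Gm13138, at chr4:146432981-146433220, stands for copied sequence, since the parts of it that were counted occurred between 5 and 9 times in the genome. In the last 2 sequences the capitals mark CpG dinucleotides. Zfp36l2, at chr17:84585481-84585720, had the pair richest in G+C and is shown by a window with 36 CpG and 77.5% G+C. Its product is an RNA-binding protein and, despite the symbol, not a C2H2 protein. Cep57l1, at chr10:41520481-41520720, had 5 CpG and 43.8% G+C in a window outside coding sequence, where most pairs lay. The first 3 windows are printed from the plus strand and the last 2 from the minus strand, and 4 of the 5, all but Cep57l1, lay inside 1 coding exon.
Zfp612: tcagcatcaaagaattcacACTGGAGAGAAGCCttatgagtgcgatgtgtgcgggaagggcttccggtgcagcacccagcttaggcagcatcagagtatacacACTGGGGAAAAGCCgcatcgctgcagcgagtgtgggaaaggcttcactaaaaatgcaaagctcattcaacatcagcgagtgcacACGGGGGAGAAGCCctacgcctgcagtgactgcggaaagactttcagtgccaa
Zfp930: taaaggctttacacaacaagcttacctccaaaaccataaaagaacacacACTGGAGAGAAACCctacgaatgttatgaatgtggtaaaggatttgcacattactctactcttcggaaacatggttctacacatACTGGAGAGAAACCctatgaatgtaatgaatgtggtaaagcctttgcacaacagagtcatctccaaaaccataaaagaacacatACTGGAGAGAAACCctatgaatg
Gm13138: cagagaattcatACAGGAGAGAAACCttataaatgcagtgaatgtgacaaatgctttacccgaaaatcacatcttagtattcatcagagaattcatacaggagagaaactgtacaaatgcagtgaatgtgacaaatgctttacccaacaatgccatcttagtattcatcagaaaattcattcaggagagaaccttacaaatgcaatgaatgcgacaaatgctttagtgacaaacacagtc
Zfp36l2: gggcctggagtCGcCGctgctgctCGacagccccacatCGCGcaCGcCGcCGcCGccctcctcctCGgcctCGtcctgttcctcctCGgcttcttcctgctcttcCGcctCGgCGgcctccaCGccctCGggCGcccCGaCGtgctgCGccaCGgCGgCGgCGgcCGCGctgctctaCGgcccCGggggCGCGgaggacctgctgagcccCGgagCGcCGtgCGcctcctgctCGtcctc
Cep57l1: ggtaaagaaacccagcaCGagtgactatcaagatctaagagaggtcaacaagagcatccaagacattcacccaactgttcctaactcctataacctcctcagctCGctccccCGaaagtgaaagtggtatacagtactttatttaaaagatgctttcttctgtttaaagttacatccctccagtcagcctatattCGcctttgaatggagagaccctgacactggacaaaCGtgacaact

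Most pairs were short and were matched loosely. The shared segments had a median of 1000 bp (interval 800 to 1000) with quartiles of 600 and 1600 bp, and together they covered 1.52 Mb. The paired regions themselves had a median of 1200 bp in either list. Regions in 1 list only were shorter, with a median of 1000 bp for H3K36me3 and 800 bp for H3K9me3. Because the deposited regions were multiples of 200 bp, apart from 1 in each list at the end of chromosome 13, short regions can meet the rule in few ways. Exactly 50% of the wider region was shared in 183 pairs (17.3%), and at least 75% of each region in 447 pairs (42.2%). Both ends were identical in 107 pairs (10.1%).

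Neither mark was regularly the wider. The H3K36me3 region was wider in 405 pairs, the H3K9me3 region in 433, and the widths were equal in 220. One region lay inside the other without sharing both ends in 670 pairs. In 903 pairs that touched a single protein-coding gene and no other, the ends could be ordered along that gene. Towards the gene start the H3K9me3 region reached further in 341 pairs, the H3K36me3 region in 290, and both stopped in the same bin in 272. Towards the gene end these numbers were 355, 278 and 270. H3K36me3 thus reached further in 46.0% of unequal pairs on the start side and in 43.9% on the end side, which describes the pairs as chosen.

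**Figure D1:**
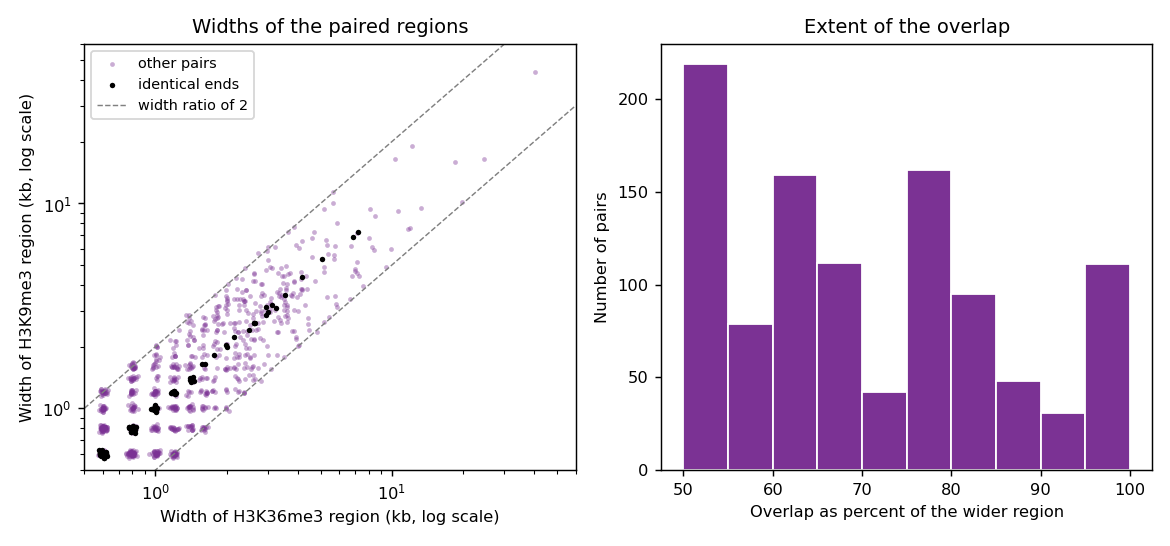
The left panel plots the width of the H3K9me3 region against that of the H3K36me3 region for each of the 1058 pairs (kb, log axes, points shifted slightly so that they can be told apart), and the right panel counts pairs by the overlap as a percentage of the wider region. All points lie between the dashed lines of a 2-fold width ratio because the rule requires it, and the 107 pairs with identical ends, in black, lie on the diagonal.

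A few pairs were very wide. The shared segment was at least 5 kb in 29 pairs. The widest, at chr8:19859601-19901000, spanned 41400 bp over 6820431F20Rik and 2610005L07Rik, with 95.8% of the wider region shared, and 172 of its 207 bins of 200 bp were copied elsewhere in the genome. The next, at chr4:155541601-155558200, covered 16600 bp of Agrn, which encodes the secreted proteoglycan agrin, and included 5185 bp of coding sequence with no copied bin. The first of these wide pairs thus lay mostly in copied and the second in single-copy DNA. Segments of 15600 bp at Sytl3 and Ezr, whose product ezrin links membrane and actin, 12000 bp at Heatr7b1 and Hjurp, which encodes the chaperone of the centromeric histone CENP-A, and 10000 bp at both Cep57l1 and Srrm2, a component of the splicing machinery, followed. The widest pairs with identical ends were at Gm13227 (7200 bp), Zfp445 (6800 bp), Zfp600 (5200 bp, shared with Gm17452 and Gm13165) and Gm13242 (4400 bp). ZFP445 is a KRAB zinc finger protein that acts in genomic imprinting. At the limit of the rule, Gm13251, Polr1a, which encodes the large subunit of RNA polymerase I, and 1700019D03Rik shared exactly 50% of the wider region. Tln1 with 49.4%, Trim24 with 48.8% and Cops4 with 48.6% fell just outside.

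Pairs lay in other parts of genes than either mark alone. Coding sequence was touched by 440 shared segments (41.6%), against 63.99% of H3K36me3-only and 25.1% of H3K9me3-only regions. Pairs thus differed by -22.4 percentage points from the first (interval of the difference -25.4 to -19.4, lower on 19 of 19 autosomes) and were 16.5 points higher than the second (13.5 to 19.6, higher on 19 of 19). Segments that touched introns only made up 52.0% of pairs, 31.3% of H3K36me3-only and 66.5% of H3K9me3-only regions. They were more frequent among pairs than among H3K36me3-only regions on 19 of 19 autosomes, by 20.6 points (17.6 to 23.7), and less frequent than among H3K9me3-only regions on 18, with a difference of -14.5 points (-17.6 to -11.5), or -9.09 points (-12.2 to -6.03) with the compared regions weighted to the widths of pairs. With the same weighting the coding differences were -21.1 points from H3K36me3 only (-24.1 to -18.0) and 11.7 points from H3K9me3 only (8.75 to 14.8). For both measures the pairs lay between the lists. Among the 107 pairs with identical ends the differences from H3K36me3 only were larger, at -38.8 points (-46.0 to -29.7) and 31.3 points (21.8 to 39.9). Those from H3K9me3 only were not detectable, as the difference was 0.169 points for coding sequence (-7.12 to 9.17) and -3.90 points for introns only (-13.4 to 4.70). Of all 1 kb tiles of the annotated genes, 18.1% touched coding sequence and 74.8% introns only. Counted by 200 bp bins, which give wide regions more weight, 19.3% of bins of pairs were coding, against 28.1% for H3K36me3 only and 9.20% for H3K9me3 only. Intron bins made up 70.3% for pairs, 61.3% and 73.0%, so by bin the distance of pairs from H3K9me3 only in introns was much smaller than by segment.

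At the 5′ end of genes the pairs were closer to H3K36me3 only than to H3K9me3 only. Only 35 shared segments (3.31%) came within 1 kb of a gene start, against 1.68% of H3K36me3-only regions, 14.005% of H3K9me3-only regions and 4.32% of tiles. The share among pairs differed by -10.7 points from that of H3K9me3-only regions (-11.7 to -9.38), and was lower on 19 of 19 autosomes. With regions of at least 1 kb in all sets this difference was -17.7 points (-19.1 to -15.6). Within 1 kb the share among pairs was 1.63 points above that of H3K36me3-only regions (0.697 to 2.90), and higher on 12 of 19. Within 2 kb of a gene start this difference was 0.348 points, with an interval of -1.01 to 2.01. The first coding exon was touched by 4.24%, 3.54% and 11.2% of pairs, H3K36me3-only and H3K9me3-only regions in protein-coding genes. Pairs were lower than H3K9me3 only on 19 of 19 autosomes and, against H3K36me3 only, higher on 9 and lower on 10.

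The last coding exon was touched by pairs more often than by H3K9me3-only regions. Of 1013 pairs in protein-coding genes, 150 (14.8%) touched it, against 14.8% of H3K36me3-only and 6.14% of H3K9me3-only regions. Pairs differed by -0.0266 points from the first (-2.12 to 2.33, higher on 8 autosomes and lower on 11) and by 8.67 points from the second (6.59 to 11.003, higher on 17 of 19 autosomes). With the compared regions weighted to the widths of pairs, the difference from H3K9me3 only was 6.41 points (4.32 to 8.76). Among the 107 pairs with identical ends the difference from H3K9me3 only was 3.33 points, with an interval that includes 0 (-1.09 to 10.9). The difference from H3K36me3 only depended on how zinc finger genes were treated. Without genes of a Zfp symbol it was -1.66 points (-3.69 to 0.660). Of pairs in zinc finger genes, 35.7% touched the last coding exon (27.5 to 44.7). In the same genes 29.5% of H3K36me3-only regions did so, with an interval that overlapped that of pairs. The share of H3K9me3-only regions there was 19.3% (15.1 to 24.4). Zinc finger genes are defined below by their linker motifs, a definition added after the data had been seen. Outside these genes the share was 12.1% of pairs (10.2 to 14.4) and 14.7% of H3K36me3-only regions, a difference of -2.57 points (-4.59 to -0.239), and 6.01% of H3K9me3-only regions. At an overlap limit of 25% the difference from H3K36me3 only was -2.31 points (-3.80 to -0.688) over all genes.

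**Figure D2:**
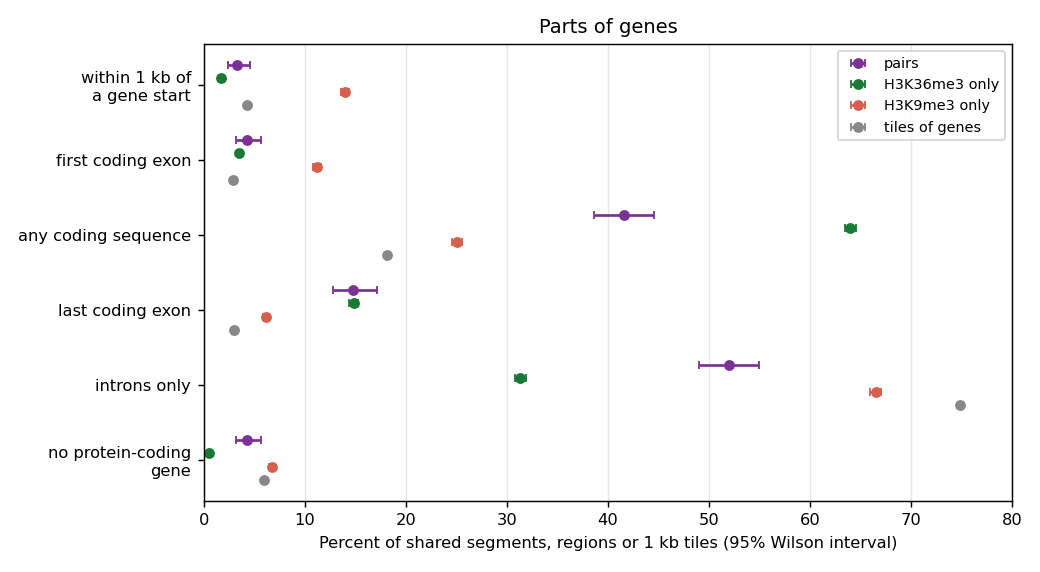
Each point is the percentage of shared segments of pairs, regions of 1 list only, or 1 kb tiles of all annotated autosomal genes that touched the named part of a gene, with bars for the 95% Wilson interval; exon rows count regions in protein-coding genes only. Pairs lie between the 2 lists for coding sequence (41.6%) and introns only (52.0%) and at the same share as H3K36me3 for the last coding exon (14.8%), which over genes other than zinc finger genes was 12.1% against 14.7%.

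Position along the gene gave a similar account. In protein-coding genes of at least 10 kb, the midpoint of 954 pairs had a median position of 60.8% of the gene length from the start (interval 58.5 to 63.3). H3K36me3-only regions had a median of 63.8% and H3K9me3-only regions one of 43.9%. The first 10% of the gene held 5.35% of pairs, 3.04% of H3K36me3-only and 19.3% of H3K9me3-only regions. The last 10% held 15.8%, 15.7% and 10.2%. Pairs thus became more frequent towards the gene end, as H3K36me3 did. The genes around pairs had a median length of 54.6 kb, closer to the 43.9 kb of genes around H3K36me3-only regions than to the 133.8 kb around H3K9me3-only regions.

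**Figure D3:**
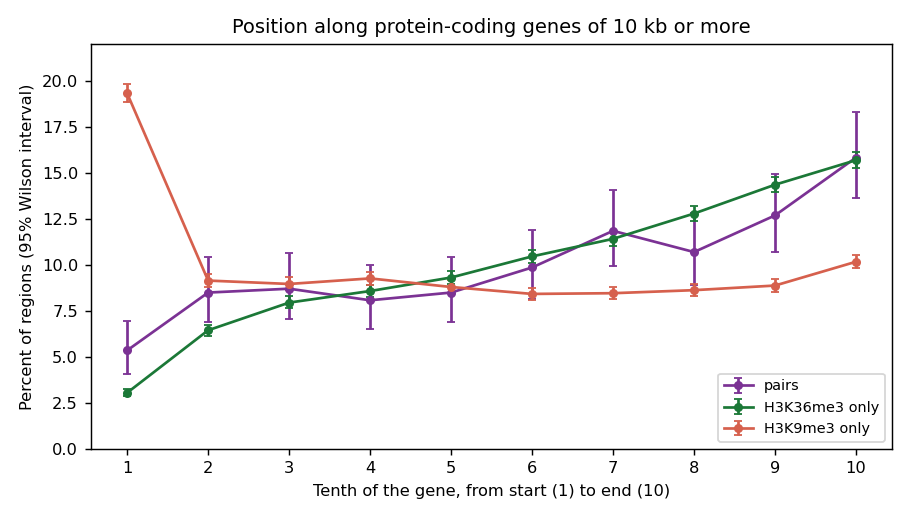
The plot gives the percentage of pairs (n = 954), H3K36me3-only and H3K9me3-only regions whose midpoint fell in each of 10 equal parts of a protein-coding gene of at least 10 kb, with 95% Wilson intervals. Pairs rise from 5.35% in the first part, where H3K36me3-only regions have 3.04%, to 15.8% in the last. They lack the peak of 19.3% that H3K9me3-only regions have in the first part.

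Overlaps that missed the rule made a close comparison. There were 2118 autosomal overlaps that covered under 50% of the wider region, with a median shared width of 600 bp. Their shares of coding sequence (35.7%) and introns only (56.8%) were nearer to those of pairs than those of either list alone. They touched the last coding exon in 7.61% of cases, 7.20 points below pairs (4.79 to 9.76), and a linker motif in 1.04%, 3.21 points below pairs (2.03 to 4.65). The share with copied sequence, 10.6%, differed from that of pairs by less than the counting error (difference -0.557 points, interval -2.72 to 1.76). Last exons and finger sequence were thus more frequent in pairs than in partial overlaps. The shared segments of pairs were also wider, and the part of width in this was not tested.

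Pairs had a lower median G+C content than either list. The difference from H3K36me3 only rested on chromosome 4, and that from H3K9me3 only was smaller without it. The median was 46.3% for pairs (interval 45.9 to 46.8), 46.9% for H3K36me3-only regions, 47.8% for H3K9me3-only regions and 42.9% for tiles. Without chromosome 4 the median of pairs was 47.0%, a difference of 0.125 points from H3K36me3-only regions and of -0.695 points from H3K9me3-only regions. Pairs had the higher median on 11 of 19 autosomes against H3K36me3 only and on 6 of 19 against H3K9me3 only.

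Within gene parts the clearest contrast was with H3K9me3. Among regions that touched coding sequence, the median G+C was 48.6% for pairs (47.7 to 49.4), 47.5% for H3K36me3 only and 54.2% for H3K9me3 only, and on none of the 19 autosomes were pairs higher than H3K9me3 only. The 35 pairs near a gene start had a median of 48.0% (44.5 to 54.0), against 50.7% and 59.8%, and were higher than H3K36me3 only on 6 and than H3K9me3 only on 1 of the 14 autosomes that had both. Their ratio of observed to expected CpG was 0.244 (0.193 to 0.342), beside 0.250 for H3K36me3 only and 0.643 for H3K9me3 only. CpG islands, the CpG-rich stretches of many promoters, have a high ratio. The median ratio of pairs near gene starts was thus close to that of H3K36me3-only regions there, with a wide interval. A G+C of at least 60% was nevertheless found in 14.3% of the 35 pairs, against 2.51% of H3K36me3-only and 48.9% of H3K9me3-only regions there. The 25 of these pairs outside zinc finger genes, copied sequence and noncoding genes had a median G+C of 53.4% (46.8 to 54.8) and a median ratio of 0.267. In introns the medians were close, with 45.4%, 46.0% and 46.2%. The most G+C-rich pairs were exceptions, namely Zfp36l2 with 74.9% over 800 bp, of which the CpG-rich sequence printed above is a part, and Yy1, which encodes a transcription factor, with 72.0% over 400 bp.

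**Figure D4:**
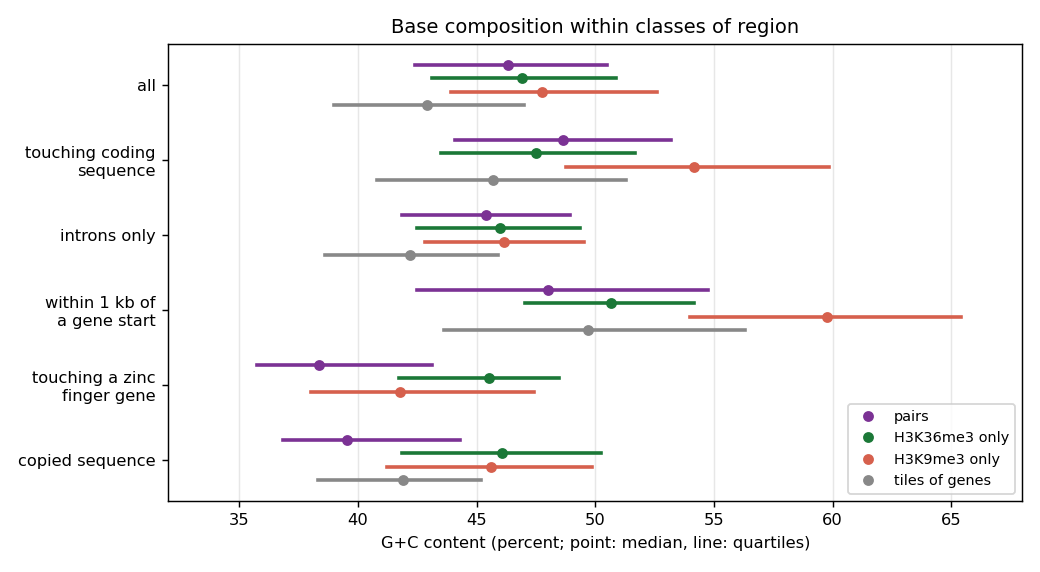
Points are the median and lines the quartiles of G+C (percent) of shared segments, regions of 1 list only and 1 kb tiles of genes, for all of them and within classes; tiles were not scored for zinc finger genes. Pairs have low medians in zinc finger genes (38.3%) and copied sequence (39.5%), and H3K9me3-only regions have high ones near gene starts (59.8%). Of the 106 copied pairs, 65 lay on chromosome 4. By autosome, copied pairs had the higher median on 6 and the lower on 7 against either list.

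Sequence with exact copies elsewhere was frequent in pairs, and most of it came from 1 chromosome. A segment was called copied where at least 50% of its 200 bp bins had central 50 bases that occurred more than once in the genome. This held for 106 pairs (10.0%), 0.540% of H3K36me3-only regions, 4.28% of H3K9me3-only regions and 5.43% of tiles. Pairs were 9.48 points above H3K36me3 only (7.81 to 11.4, higher on 13 of 19 autosomes) and 5.74 points above H3K9me3 only (4.05 to 7.71), though higher on only 9 of 19. Of the 106 copied pairs, 65 lay on chromosome 4. Without that chromosome the difference from H3K36me3 only was 4.12 points (2.92 to 5.72), and that from H3K9me3 only was 0.780 points with an interval of -0.442 to 2.39. Where any copied bin sufficed, the differences were 15.7 points (13.2 to 18.4) and 10.8 points (8.32 to 13.5), with chromosome 4 included. Segments with more bins meet that rule more easily, and shared segments were wider than H3K9me3-only regions. The part of width, and the values without chromosome 4, were not tested under that rule. Most pairs were nevertheless in unique sequence, as every bin was unique in 803 of them (75.9%). The most frequent bin of a copied pair occurred 2 to 10 times in the genome in 92 cases, with a median of 5 over the 106. The most completely copied were a 3600 bp segment at Gm16889 and Gm13138, with all 18 bins copied, and a 3400 bp segment at 2610305D13Rik, with all 17. The authors allowed a read to align to a limited number of places, and whether such reads placed both marks on the same copies was not tested.

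Zinc finger genes were more frequent among pairs than among regions of either list alone, and partial overlaps lay between. Genes with a Zfp symbol, the usual mouse name for this class, were touched by 58 pairs (5.48%), against 1.80% of H3K36me3-only and 1.15% of H3K9me3-only regions. Pairs were 3.68 points above the first (2.45 to 5.22, higher on 13 of 19 autosomes) and 4.33 points above the second (3.11 to 5.88, higher on 14). Overlaps under the 50% limit had a share of 3.82%, 1.66 points below pairs (0.141 to 3.36). The symbol also covers proteins of other kinds, such as that of Zfp36l2, and is not carried by all C2H2 genes. A second definition was therefore added after the data had been seen, and it gave larger differences. Here a zinc finger gene is an autosomal protein-coding gene with at least 3 linker motifs in its coding sequence, whatever its symbol, which gave 311 genes. This leaves out C2H2 genes with few linkers of that form, such as Zfp445, and 21 of the 58 pairs at Zfp symbols touched none of the 311. The 311 genes were touched by 115 pairs (10.9%), against 0.820% of H3K36me3-only and 0.926% of H3K9me3-only regions. The differences were 10.0 points (8.31 to 12.1) and 9.94 points (8.20 to 12.0), and pairs were higher on 10 of 19 autosomes in either comparison. Chromosome 4 held 66 of these pairs. Without it the share was 5.54% (4.21 to 7.24), 4.73 points above H3K36me3 only (3.40 to 6.44) and 4.84 points above H3K9me3 only (3.51 to 6.55). Overlaps under the 50% limit, chromosome 4 included, had 6.28%, which was 4.59 points below pairs (2.53 to 6.82) and above both single lists.

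Counted by gene, 57 of the 311 zinc finger genes were touched by a pair (18.3%, interval 14.4 to 23.0), beside 3.57% of all autosomal protein-coding genes (764 of 21418). On chromosome 4 this was 16 of 23 genes, and on the other autosomes 41 of 288 (14.2%, 10.7 to 18.7). Among genes that carried both marks, 57 of 91 zinc finger genes (62.6%, 52.4 to 71.9) and 28.4% of all protein-coding genes had a pair, and without chromosome 4 these shares were 56.9% (45.4 to 67.7) and 27.6%. The zinc finger genes were shorter, with a median of 14.7 kb against 39.9 kb for protein-coding genes with both marks, and the part of gene length in this was not tested. Genes with a Zfp symbol gave 46 of 362 (12.7%). Among the 116 zinc finger genes without that symbol, 28 were touched (24.1%, 17.3 to 32.7), so the symbol alone missed many of them.

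The pairs in zinc finger genes covered both finger exons and introns. Of the 115, 41 touched the last coding exon and 62 lay in introns only. Their median G+C was 38.3% (37.3 to 39.8), beside 45.5% for H3K36me3-only and 41.8% for H3K9me3-only regions in such genes. Without chromosome 4 the medians were 40% (38.2 to 43.2, 49 pairs), 46.0% (44.9 to 46.9) and 42.4% (41.0 to 44.3), so that the intervals of pairs and H3K9me3 only overlapped. Pairs were lower than H3K36me3 only on 7 of 9 autosomes that had both, and lower than H3K9me3 only on 6 of 10. Copied sequence made up 37.4% of them (29.1 to 46.5), against 6.84% of H3K36me3-only and 29.6% of H3K9me3-only regions in such genes. Outside zinc finger genes, 6.68% of pairs were copied, so both kinds of pair added to the total.

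The linker motif itself was present in 45 pairs on 12 chromosomes. This was 4.25% of pairs, against 0.519% of H3K36me3-only regions, 0.352% of H3K9me3-only regions and 0.158% of tiles, with differences of 3.73 points (2.67 to 5.13) and 3.90 points (2.84 to 5.29), higher on 12 of 19 autosomes in both. Unlike copied sequence, this did not depend on chromosome 4, which held 12 of the 45, and without it the differences were 3.21 points (2.14 to 4.67) and 3.38 points (2.31 to 4.84). Without genes of a Zfp symbol they were both 2.26 points (1.45 to 3.42 and 1.46 to 3.43). Within zinc finger genes the motif was present in 38 of 115 pairs (33.04%, 25.1 to 42.1) and in 29.5% of H3K36me3-only regions. These intervals overlapped, so no clear difference from H3K36me3 only was seen inside such genes. The share of H3K9me3-only regions there was 17.2% (13.2 to 22.1). In 43 of the 45 pairs the last coding exon was touched. The pairs held 251 motifs, and of 206 neighbouring motifs 135 were 84 bases apart and 192 a multiple of that distance, the length of 1 finger with its linker. This is the spacing visible in the Zfp612 and Zfp930 sequences printed above. The following pairs were picked for their motif counts once these were known. The most motifs, 13, were in a 1400 bp segment of 2410141K09Rik, followed by 11 in Zfp97 and 10 each in Gm13242, Zfp930, Zfp612 and the segment shared by Zfp420 and Zfp27. Motifs were counted over the whole segment, and the annotated coding sequence can hold fewer, with 3 in 2410141K09Rik and 6 in Gm13242. Of the 2410141K09Rik segment, 302 bp were coding. The Zfp930 pair had identical ends at chr8:71750801-71753000. The Zfp612 segment, chr8:112612601-112614000, was 1400 bp long and lay wholly in the last coding exon.

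**Figure D5:**
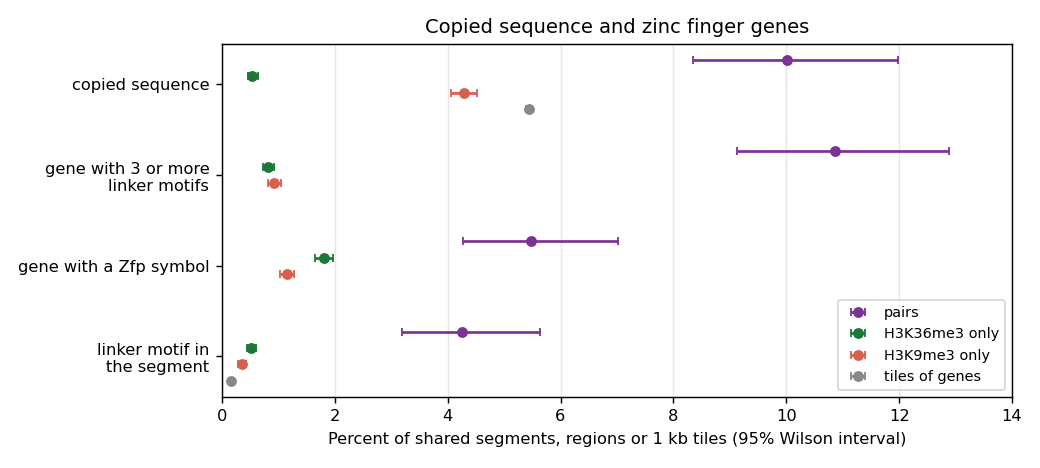
Points give the percentage of shared segments of pairs, regions of 1 list only and 1 kb tiles of genes with each feature, with bars for 95% Wilson intervals; tiles were not scored for gene classes. Pairs are the highest group in each row, with 10.0% copied, 10.9% in zinc finger genes and 4.25% with a linker motif.

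Pairs were unevenly spread over the chromosomes. Chromosome 4 had 173 pairs, or 7.004% of its H3K36me3 and 9.10% of its H3K9me3 regions, and chromosome 19 had the fewest, with 17 (1.72% and 1.91%). Of those on chromosome 4, 109 fell in the 3 Mb at chr4:145000001-148000000, the 1 Mb windows of that chromosome with 10 or more pairs. In this cluster 65 pairs touched a zinc finger gene, 65 were copied, 82 lay in introns only and 25 touched no protein-coding gene, with a median G+C of 38.3%. The remaining 64 pairs of the chromosome included no copied segment and 1 in a zinc finger gene, with a median G+C of 46.9%. All copied pairs of chromosome 4, and all but 1 of its pairs in zinc finger genes, thus lay in the cluster. The cluster was picked for its number of pairs, so that number describes the choice. Elsewhere, 22 pairs lay in 1 Mb of chromosome 17, and 19 of these were in Dnahc8. Across all autosomes the median gap between neighbouring pairs was 445.2 kb, with 221 of 1039 gaps under 10 kb and 405 over 1 Mb.

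The genes with most pairs came from the same places. The long noncoding RNA genes Gm16889 (27 pairs), Gm17317 (21) and Gm17452 (13), each over 200 kb long, led with the zinc finger gene Gm13242 (19), all within the cluster of chromosome 4. They were followed by 2610036A22Rik and Gm17609 (8 each) and by Gm13165, Gm13227 and the zinc finger genes Gm13247 and Zfp600 (7 each). Several of these genes overlap, so that 1 pair counts for more than 1 gene, and 99 pairs touched genes on both strands. Dnahc8, which encodes a dynein heavy chain of the axoneme and lies at chr17:30761299-31012209, was the exception among the genes with most pairs. Its 19 pairs shared 400 to 2200 bp (median 600), none was copied, 12 lay in introns only and 7 touched coding sequence. Its widest shared segment, at chr17:30782001-30784200, covered 91.7% of the wider region. Genes with somewhat fewer pairs also lay elsewhere, such as Etl4 on chromosome 2 and Slc38a1 on chromosome 15 (6 each). Most protein-coding genes had few pairs, as 593 of the 764 had 1, 116 had 2 and 55 had 3 or more.

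Pairs in noncoding genes formed a small class. There were 45 pairs that touched no protein-coding gene (4.25%), against 0.515% of H3K36me3-only and 6.73% of H3K9me3-only regions. This was 3.74 points above H3K36me3 only (2.67 to 5.13, higher on 10 autosomes and lower on 8), and 1.75 points (0.952 to 2.96) without chromosome 4, which held 25 of the 45. The difference from H3K9me3 only was -2.48 points (-3.57 to -1.06), with pairs lower on 18 of 19 autosomes, but among the 447 pairs with at least 75% overlap the difference was -0.241 points (-2.20 to 2.45). The genes touched by pairs included 28 lincRNA and 22 processed transcript genes.

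The other gene classes are small, and their counts stand beside the 3.57% of all protein-coding genes that had a pair, the 35.2% that carried H3K36me3 and the 41.4% that carried H3K9me3. Marker genes of ES cells served as a check, since H3K36me3 follows transcription, and all 12 that were matched carried an H3K36me3 region, against 2 of 18 markers of other cell types, namely Eomes and Tubb3. Among the ES cell markers Esrrb, which encodes an orphan nuclear receptor of the pluripotency network, was the one with pairs. It had 2, both in introns. The first, at chr12:87793601-87795200, had identical ends over 1600 bp, and the second shared 4400 bp, or 61.1% of the wider region. The other 11 ES cell markers had no H3K9me3 region. Of the markers of other cell types, Tubb3, a neuronal tubulin, had a 600 bp pair. With 1 of 12 (8.33%, 1.49 to 35.4) and 1 of 18 genes (5.56%, 0.988 to 25.8), the intervals of both lists include the share over all genes.

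Imprinted genes, which are expressed from 1 parental allele and often carry H3K9me3 on the other, had a pair in 6 of 40 genes (15.0%, interval 7.06 to 29.1). They were Peg10 (2800 bp), Zdbf2 (2000 bp in 2 pairs), Gnas (1845 bp in 2 pairs), its antisense transcript Nespas (1000 bp), Igf2r (800 bp) and Peg3 (800 bp). Gnas and Nespas overlap, so these are not 6 independent places. The pair at Peg10, which derives from a retrotransposon, lay in coding sequence at chr6:4704401-4707200 and shared 77.8% of the wider region. The interval lies above the 3.57% of all protein-coding genes, a share to which Nespas, a lincRNA gene, does not belong. Among genes with both marks, 6 of 17 imprinted genes had a pair (35.3%), near the 28.4% of all protein-coding genes. The 62 Zbtb, Zscan and Zkscan genes, whose products also carry C2H2 fingers, had 2 genes with a pair, Zscan20 (2400 bp) and Zbtb38 (800 bp), a share of 3.23% that does not stand out.

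In most housekeeping and silent classes, as among all genes, the marks were often found one without the other. Most histone and receptor genes carried neither. Both marks were on 2692 of the 21418 protein-coding genes. In the classes they were on 7 of 72 ribosomal protein, 6 of 49 splicing factor, 5 of 20 heterochromatin and 5 of 13 H3K36 methylation genes. They were also on 4 of 30 germline, 4 of 42 collagen and 1 of 24 protocadherin genes, and on no Hox gene. Pairs were too few to set apart from the 3.57% of all genes, except in the receptor families named last. No gene of those families carried both marks, so none could have a pair. Ribosomal protein genes carried H3K36me3 in 67 of 72 cases but H3K9me3 in 9, and Rpl15 alone had a pair (600 bp). Splicing factor genes carried them in 47 and 7 of 49, with a pair at Snrpb2 (400 bp). Genes for H3K9 methylation and heterochromatin had 18 and 5 of 20 and no pair. Of 13 genes for H3K36 methylation, 11 and 6 carried the marks, with a 600 bp pair at Whsc1, which encodes an H3K36 methyltransferase. Conversely, all 40 Hox genes carried H3K9me3 and none H3K36me3, 19 and 1 of 24 clustered protocadherin genes did, and 33 and 5 of 42 collagen genes. None of these 3 classes had a pair. Germline and meiosis genes had H3K9me3 in 22 of 30, H3K36me3 in 6 and no pair, which allows a share of up to 11.4% by the Wilson interval. Of 67 histone genes 3 carried H3K9me3 and none H3K36me3. The olfactory receptor genes (50 of 1106 with H3K9me3, 1 with H3K36me3) and vomeronasal receptor genes (38 of 327 and none) had no pair either, with upper limits of 0.346% and 1.16% by the Wilson interval. The upper limits of the smaller classes without a pair, from 5.42% for histone genes to 16.1% for the heterochromatin genes, include the share over all genes.

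Sorted into groups that do not overlap, the 1058 pairs were 115 in zinc finger genes, 63 others in copied sequence, 28 others in noncoding genes only, 25 near a gene start, 357 in coding sequence, 40 in untranslated or other exons and 430 in introns only. The coding group held 42.0% of the shared length, with a median G+C of 49.1%. The intron group held 30.1%, with a median of 46.3%. Identical ends were found in 25 of the 115 zinc finger pairs and in 38 of the 430 intron pairs. The 107 pairs with identical ends had a median G+C of 43.5%, and 31 of them were on chromosome 4. Pairs outside zinc finger genes and copied sequence were thus the large majority, and they lay mainly in coding sequence and introns.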

How the data were processed

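Both marks were measured by ChIP-seq in WT cells and in cells with the G34R change, with 1 library for each of the 4 combinations. According to the study's methods, the authors aligned reads to mm9 with Bowtie, allowing a few alignments per read, removed PCR duplicates, counted reads in 200 bp bins in SeqMonk, scaled them to library size and matched the distributions of the cell types. Genic bins in the top percentiles of a mark, in either cell type, were joined with bedtools. The submitters' processing notes name Bowtie 1.0.0 and bedtools 2.20.1. The deposited lists used here give chromosome, start and end, so the analysis used no count, signal or depth. The alignment limit may make repeated sequence less likely to be listed, which was not tested, and the percentile sets how many regions are listed. In 45 of the 106 copied pairs the most frequent bin occurred more than 5 times in the genome, above the authors' alignment limit. All regions touched annotated genes, so intergenic DNA was not covered. As worded in the methods, merged regions above a size limit were left out, yet the shortest deposited region was 600 bp and the lists hold much longer ones, so which way the limit ran is unclear.

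Pairs were found from positions (at least 50% of each region). Gene parts came from GENCODE M1 on NCBIM37, whose chromosome 13 ends at the last deposited position. Measures of a pair were taken on its shared segment and those of other regions on the whole region. G+C, observed to expected CpG, linker motifs and exact copies of the central 50 bases of each bin were read from the genome with Python 3.11.15 and numpy 2.4.6. Shares were given Wilson intervals and their differences Newcombe intervals, medians order-statistic intervals. No test between cell types was possible. Overlaps and copy counts were checked on simulated data, with 0 differences.

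Named pairs were the 6 widest, the 4 widest with identical ends, 3 just inside and 3 just outside the limit, the 2 richest in G+C and the 2 most copied. Genes were named where they had 4 or more pairs (at most 10, most pairs first) or, up to 4 for a gene list, the longest shared length. Imprinted genes beyond the first 4, Zfp600 among the genes with most pairs, pairs with most linker motifs, the linker definition of zinc finger genes, and the values without chromosome 4 were chosen after values were seen. The pairs, gene lists and rules were chosen with earlier results of these data known. Alternatives were other overlap limits, widths, comparison regions, distances, copy rules and left-out chromosomes or classes.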

Additional observations from a re-analysis of the deposited data

How the results depend on the processing

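Of 438 alternatives for differences in shares, 429 left the call as it was, that is, the interval stayed on the same side of 0 or went on including it, whatever the size. Over all 553 alternatives, counts within 1.5 times and medians within their interval included, 522 did so. Most of the 438 left out 1 chromosome, which keeps most regions and could seldom change a call. Their count is thus a weak check. Among shares, such a run changed the call only for copied sequence against H3K9me3 only, without chromosome 4. Sizes moved more. With identical ends the copied share differed from the single lists by 19.1 and 15.3 points, the Zfp share by 6.61 and 7.26, the noncoding share from H3K36me3 only by 10.7 and the gene start share from H3K36me3 only by 3.93. At 75% overlap the copied difference from H3K9me3 only was 8.69 points and the noncoding difference from H3K36me3 only 5.97. At the 50% limit the latter was 2.44 points without copied sequence. The noncoding difference from H3K9me3 only was -3.89 without chromosome 4. Leaving out chromosomes, weighting the compared regions by width, requiring identical ends, and the definition of zinc finger genes by 3 or more linker motifs were added after the data were seen. That definition gave differences of 10.0 and 9.94 points where the Zfp symbol gave 3.68 and 4.33. The number of pairs was set by the rule: 1963 at 25% overlap, 447 at 75%, 142 at 90%, 107 with identical ends, 562 with regions of at least 1 kb and 509 after neighbours within 2 kb were merged. Protein-coding genes touched numbered 1193 at 25% and 350 at 75%, and Zfp genes 24 at 75%. With regions of at least 1 kb the median shared width was 1600 bp.

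The gene start difference from H3K36me3 only was 0.995 points with the starts of all transcripts (interval -0.478 to 2.77) and 0.348 points within 2 kb. At 25% overlap the last coding exon difference from H3K36me3 only was -2.31 points. With identical ends (107 pairs, so the intervals are wide) the differences from H3K9me3 only were 0.169 points for coding sequence, 3.33 for the last coding exon (-1.09 to 10.9), -3.90 for introns only and, in the opposite direction, 4.49 for noncoding genes only (-0.205 to 11.9), the last of which was -0.241 at 75% overlap. Without chromosome 4 the copied share differed from H3K9me3 only by 0.780 points.

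Median G+C of pairs was 46.8% without copied sequence, 43.5% with identical ends, 47.0% without chromosome 4 and 45.8% over the union of both regions. Its difference from H3K36me3 only was -1.30 points with regions of at least 1 kb, -0.0833 without copied sequence, -3.41 with identical ends and, reversed, 0.125 without chromosome 4. That from H3K9me3 only was -2.30, -1.0, -4.27 and -0.695 points under the same settings. The cause of these shifts was not tested.

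No paired analysis was possible because each group held 1 library and the lists give no values per library. The lists cannot show whether both marks lay on the same molecules, in the same cells or in the same cell type.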
